A study of Mus musculus with 16 samples.

Results

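Cholesterol synthesis and sterol handling are described here through 33 genes, which form a named set and were matched by symbol among the 24981 genes listed in each of the expression tables. All 33 were found in both tables. They comprise 19 synthesis enzymes (5 of the mevalonate steps, 3 of the isoprenoid steps and 11 of the sterol steps), 7 regulators and 7 genes of sterol transport and handling. The cells come from the skin epidermis of newborn mice, 0 to 2 days old, which was dissected and separated on a Percoll density gradient into a basal and a suprabasal fraction. RNA-seq of total RNA covered 16 libraries, which fall into 6 groups. Of each fraction there were 4 libraries from inbred Fvb/N mice. Dlx3 wild-type (WT) and Dlx3 knockout (KO) mice, on a mix of the CD-1 and C57BL/6 strains, gave 2 libraries for each genotype and fraction, and the series' design text calls them transgenic. The Dlx3 allele, any promoter or Cre line behind it and whether animals were pooled are not given in the sources used here.

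Cells make cholesterol from acetyl-CoA. The mevalonate steps build isoprenoid units, the isoprenoid steps join them into farnesyl and geranylgeranyl diphosphate, and the sterol steps turn farnesyl diphosphate through squalene and lanosterol into cholesterol. The SREBP transcription factors switch the pathway on when membrane sterol is low. Scap carries them to the Golgi for cleavage and the Insig proteins hold Scap back, while the LXR receptors sense oxysterols and drive sterol export. In the upper epidermis cholesterol is 1 of the main barrier lipids of the cornified layer, and cholesterol sulfate, made by Sult2b1, accumulates there as keratinocytes mature.

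The levels are RPKM, reads scaled by the length of the gene and by the mapped reads of the library, so they are relative within a library and corrected for gene length. Estimated depth was 45800000 to 61800000 reads in the Fvb/N libraries and 33900000 to 42200000 reads in the Dlx3 libraries. Dlx3 was lower in KO but not absent: its RPKM in WT basal cells were 11.2 and 11.01, in KO basal cells 2.35 and 2.16, in WT suprabasal cells 7.87 and 6.92 and in KO suprabasal cells 2.64 and 2.24. The fractions carried their markers. Over 6 basal keratinocyte markers the summed level in Fvb/N was 13300 to 16000 RPKM in basal and 658, 656, 3610 and 1270 RPKM in suprabasal libraries 1 to 4. Over 6 suprabasal markers it was 33400, 38400, 5180 and 6060 RPKM for the basal libraries in order of number, and 88300, 90500, 43000 and 75100 for the suprabasal ones. Suprabasal library 3 therefore had the highest basal marker level of its group, and basal libraries 1 and 2 the highest suprabasal marker levels of theirs. The labels give Fvb/N replicates 1 and 2 an earlier run code and replicates 3 and 4 a later one. The header of the table gives the earlier code to all basal and the later to all suprabasal libraries, and if that is right, run and fraction cannot be told apart. Libraries of the same Dlx3 group differed by a median of 3.41% to 3.77% over the genes tested, against 7.78% to 41.7% in Fvb/N. Since nothing says that the Dlx3 replicates come from separate animals, p-values there measure only the spread between these libraries, which may be technical.

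The start regions of the pathway genes are given first, because most of them hold the same short motifs. RefSeq promoter windows on GRCm38.p6, 250 bases before to 50 after a start site, were matched for 27 of the 33 members. The letters CCAAT, which the factor NF-Y binds, occur on either strand in a window of 21 of the 27 members and of 15 of the 16 matched synthesis enzymes, against 41.1% of all 27025 genes and 37.4% of all 32851 windows. GGGCGG, bound by Sp1, occurs in 22 of the 27, against 38.2% of all genes and 35.7% of windows. TCACNCCAC, a form of the sterol regulatory element to which SREBPs bind, occurs in 1 member, Hmgcs1, 137 bases before the start, against 1.44% of all genes and 1.24% of windows. The DR4 repeat of LXR occurs in 0 of the 27 and in 0.0152% of windows. Among the 99 matches in member windows, 0 pairs of different motifs overlap. A match describes the letters of these windows only. The windows of 4 enzymes are shown because their RPKM part ways between the fractions of WT mice. Hmgcs1 and Idi1 are on one side and Mvk and Msmo1 on the other. With the libraries rescaled by the median ratio, as described below, Hmgcs1 changed by 0.03 there, so its side depends on the scale. Capitals mark CCAAT on either strand (read as ATTGG on the other) and, in Hmgcs1, the sterol regulatory element TCACCCCAC.
Hmgcs1, chr13:119690101-119690400, plus strand: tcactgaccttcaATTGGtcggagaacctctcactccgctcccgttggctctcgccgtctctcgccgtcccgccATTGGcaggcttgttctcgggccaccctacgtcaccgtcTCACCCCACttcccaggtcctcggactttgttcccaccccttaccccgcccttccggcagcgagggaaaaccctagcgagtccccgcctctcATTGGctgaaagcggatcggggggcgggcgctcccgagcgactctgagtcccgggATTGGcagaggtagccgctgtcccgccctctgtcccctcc
Idi1, chr13:8885356-8885655, plus strand: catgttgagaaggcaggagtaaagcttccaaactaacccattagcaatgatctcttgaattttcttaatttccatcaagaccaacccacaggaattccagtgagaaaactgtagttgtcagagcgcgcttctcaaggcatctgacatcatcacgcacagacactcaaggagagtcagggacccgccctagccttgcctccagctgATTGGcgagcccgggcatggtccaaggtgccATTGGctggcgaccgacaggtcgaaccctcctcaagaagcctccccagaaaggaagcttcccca
Mvk, chr5:114444019-114444318, plus strand: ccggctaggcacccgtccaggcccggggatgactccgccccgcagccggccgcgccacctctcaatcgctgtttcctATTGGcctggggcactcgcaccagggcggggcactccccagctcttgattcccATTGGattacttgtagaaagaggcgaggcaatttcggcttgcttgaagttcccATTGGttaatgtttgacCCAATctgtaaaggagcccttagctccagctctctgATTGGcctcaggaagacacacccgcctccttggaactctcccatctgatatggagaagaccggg
Msmo1, chr8:64733529-64733828, minus strand: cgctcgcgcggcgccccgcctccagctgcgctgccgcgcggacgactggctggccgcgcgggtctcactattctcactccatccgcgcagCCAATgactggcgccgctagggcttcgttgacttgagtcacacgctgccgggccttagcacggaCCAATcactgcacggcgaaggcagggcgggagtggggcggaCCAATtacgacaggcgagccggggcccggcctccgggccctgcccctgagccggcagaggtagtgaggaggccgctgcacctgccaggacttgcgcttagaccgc
CCAAT is in each of these 4 windows, as in 15 of the 16 matched enzymes. Acat2, also lower in WT suprabasal cells, is the 1 matched enzyme without it, and its window holds GGGCGG.

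Sterol genes ranged widely in level. In Fvb/N basal cells Hmgcs1, which makes HMG-CoA, had the highest mean level of the 33 at 70.9 RPKM (65.2 to 77.0), followed by the transcription factor gene Srebf2 at 61.9 and the farnesyl diphosphate synthase Fdps at 53.9. The ranges of these 3 genes overlap, so their order is not resolved. In Fvb/N suprabasal cells the order was Sult2b1, Fdps and Sqle, at means of 142, 124 and 84.1 RPKM, again with overlapping ranges. In the Dlx3 table Hmgcs1 also led in the basal cells of both genotypes, at 76.9 RPKM in WT and 69.8 in KO, and its range did not overlap that of Srebf2, which came next. In WT suprabasal cells Srebf2 and the squalene epoxidase Sqle stood at 69.2 and 69.0 RPKM, with overlapping ranges. At the low end Nr1h3, which encodes LXR-alpha, was under 0.24 RPKM in all 16 libraries and was tested in neither table. The cholesterol exporter Abcg1 was at 0.215 to 0.900 RPKM in Fvb/N and was not tested there, since a gene needed at least 1 RPKM in at least 4 Fvb/N or at least 2 Dlx3 libraries. So 31 of the 33 members were tested in Fvb/N and 32 in the Dlx3 table.

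**Figure D1:**
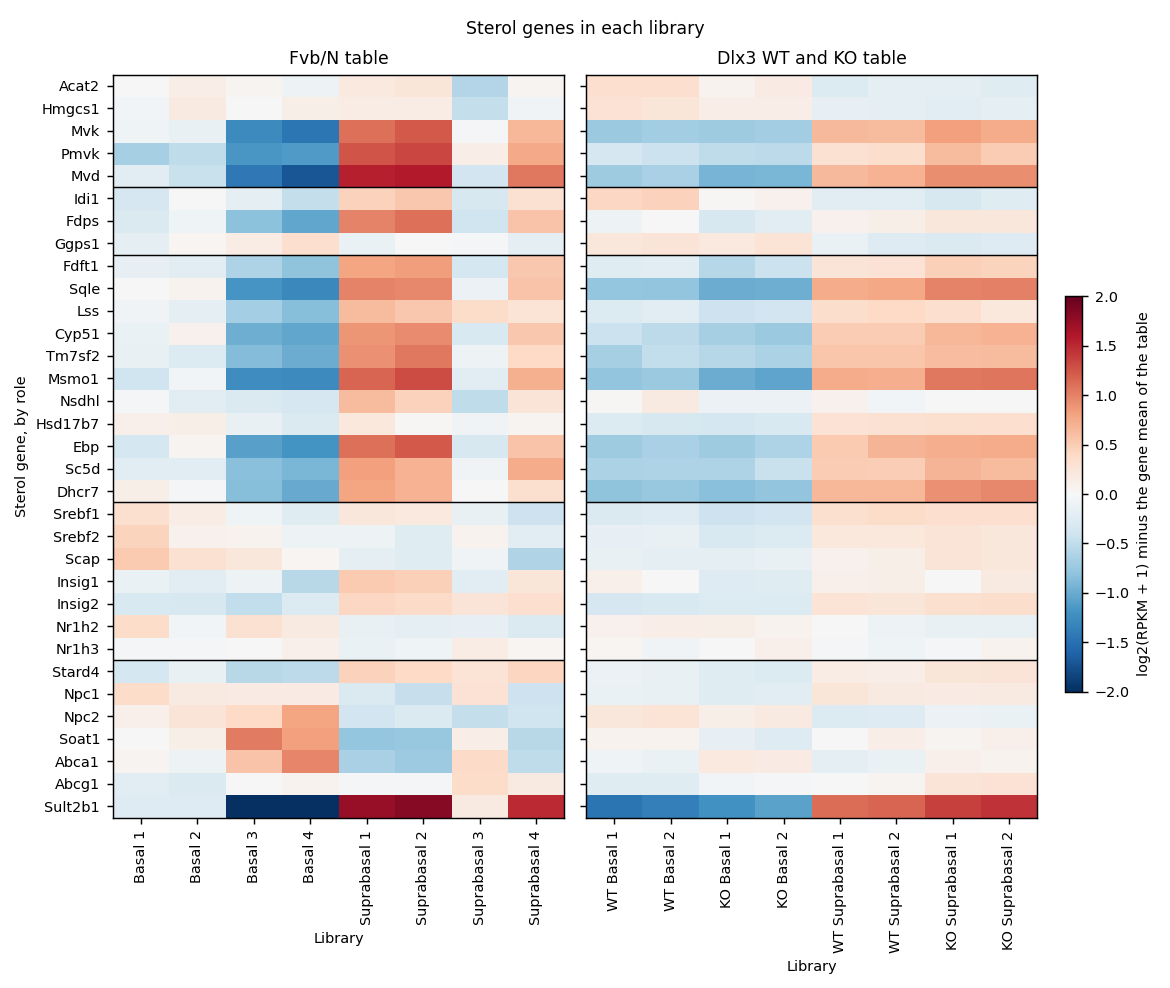
Level of the 33 sterol genes (rows, by role: mevalonate, isoprenoid and sterol steps, regulators, transport) in each library (columns) as log2(RPKM + 1) minus the gene's mean over its table, with red above and blue below that mean and the colour capped at 2 units. Most sterol-step rows turn from blue in basal to red in suprabasal libraries, Fvb/N suprabasal library 3 is paler than the others, and Acat2, Hmgcs1 and Idi1 turn the other way in the Dlx3 table, which for all 3 in KO and for Hmgcs1 in WT is no longer so after rescaling by the median ratio.

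In suprabasal cells most of the 11 sterol steps and the 3 later mevalonate genes were called higher than in basal cells, while most genes of the tables were called lower. Of the sterol steps 9 were called higher in Fvb/N, 10 in WT and 10 in KO, and Nsdhl was called in none of these comparisons. Sult2b1, the sulfotransferase that makes cholesterol sulfate, was the member with the largest difference, 6.13-fold in Fvb/N, 5.86-fold in WT and 5.84-fold in KO. Acat2 and Hmgcs1, at the entry to the pathway, did not pass the test in Fvb/N and were lower in WT and KO suprabasal cells, although a rescaling of the libraries turned Hmgcs1 in WT and both genes in KO to a positive change. Changes were tested with limma on log2(RPKM + 1), and a gene is called at a Benjamini-Hochberg adjusted p under 0.05 over all genes of its table. In Fvb/N 18 of 31 tested members were called higher and 6 lower, where 73.9% of all 11608 genes were called, 13.4% higher and 60.6% lower. In WT 22 of 32 were higher and 6 lower, against 89.6% of 12146 genes called, 19.2% higher and 70.4% lower. In KO 24 were higher and 6 lower, against 89.6% called, 19.9% higher and 69.7% lower. The median member changed by 0.70, 0.43 and 0.57 log2 units in Fvb/N, WT and KO, and the median gene by −0.55, −0.40 and −0.39. With the libraries rescaled by the median ratio, which sets the median gene to 0.02, 0.00 and 0.00, the members counted 24 higher and 0 lower in Fvb/N, 27 and 2 in WT, and 31 and 1 in KO. Of all genes that scale called 33.1% higher and 34.0% lower in Fvb/N, 40.3% and 39.2% in WT, and 39.8% and 38.7% in KO. With quantile normalization the members counted 21 higher and 1 lower in Fvb/N, 25 and 5 in WT, and 26 and 2 in KO. All genes were then 32.1% higher and 32.7% lower in Fvb/N, 30.7% and 52.6% in WT, and 29.4% and 53.6% in KO. In bulk samples like these, fewer cells of a type and less RNA per cell cannot be told apart.

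**Figure D2:**
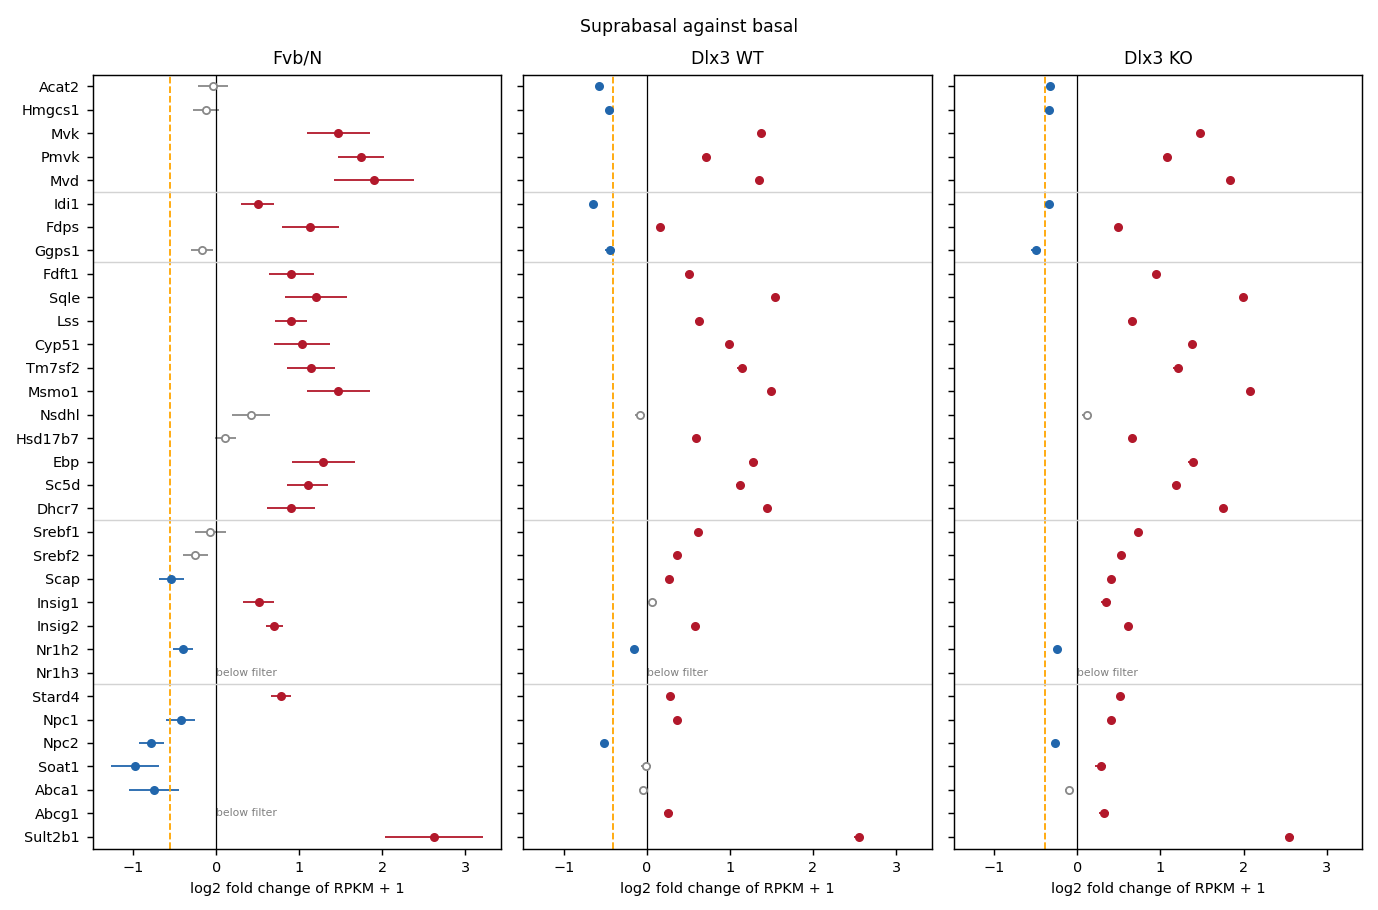
Suprabasal against basal log2 fold change of RPKM + 1 (x axis, points; bars are the standard error of limma) for each member (y axis) in Fvb/N, Dlx3 WT and Dlx3 KO, filled red where called higher, filled blue where called lower and open where not called. The orange dashed line is the median of all genes, at −0.55, −0.40 and −0.39. Nearly all sterol steps lie to the right of zero and of that line in each panel.

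Of the 5 genes of the mevalonate steps, the 3 late ones were higher in all 3 comparisons. Mvk, mevalonate kinase, stood at 38.5, 36.8, 16.5 and 14.5 RPKM in the 4 Fvb/N basal libraries and at 88.7, 97.1, 39.8 and 65.7 in the 4 suprabasal ones, in order of library number. The groups do not overlap, but basal libraries 1 and 2 are close to suprabasal library 3. Mvk rose by 1.47 (SE 0.381, adjusted p = 0.00646) log2 units in Fvb/N. In the Dlx3 table Mvk went from 16.4 and 17.01 RPKM in WT basal to 44.8 and 44.5 in WT suprabasal libraries and from 16.9 and 17.1 to 50.7 and 47.7 in KO, and rose by 1.37 and 1.48. Pmvk, phosphomevalonate kinase, was at 12.4, 13.98, 8.53 and 8.75 RPKM in Fvb/N basal and 50.1, 52.8, 22.5 and 35.2 in suprabasal libraries, with no overlap, a rise of 1.74 (SE 0.274, adjusted p = 0.00044). Its rise was 0.71 in WT and 1.08 in KO. Mvd, mevalonate diphosphate decarboxylase, was at 18.00, 15.3, 7.24 and 5.80 RPKM in Fvb/N basal and 64.4, 65.4, 16.1 and 45.03 in suprabasal libraries. Suprabasal library 3 lies inside the basal range, and the other 3 lie well above it, so that Mvd rose by 1.90 (SE 0.483, adjusted p = 0.00579). Mvd rose by 1.35 in WT and 1.84 in KO.

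Both early mevalonate genes went the other way in the Dlx3 table before rescaling. Acat2, a cytosolic thiolase that joins acetyl-CoA units, stood at 26.8 and 26.7 RPKM in WT basal and 17.2 and 18.2 in WT suprabasal libraries. It was 22.1 and 23.6 RPKM in KO basal and 18.4 and 17.6 in KO suprabasal libraries. The fractions do not overlap in either genotype, and Acat2 fell by 1.49-fold in WT (−0.57, SE 0.0404, adjusted p = 6.31e-07) and changed by −0.33 (SE 0.0404, adjusted p = 3.56e-05) in KO, where the sign turns after rescaling (0.12). Hmgcs1 was at 78.1 and 75.6 RPKM in WT basal, 56.5 and 55.7 in WT suprabasal, 69.6 and 69.99 in KO basal and 54.2 and 55.4 in KO suprabasal libraries. Its log2 change was −0.45 (SE 0.0248, adjusted p = 1.14e-07) in WT and −0.34 (SE 0.0248, adjusted p = 7.37e-07) in KO, lower in both, but 0.03 and 0.12 after rescaling. In Fvb/N neither was called, at −0.04 (adjusted p = 0.839) for Acat2 and −0.12 (adjusted p = 0.511) for Hmgcs1. Hmgcs1 there was 65.2, 76.97, 68.1 and 73.4 RPKM in basal and 75.7, 75.5, 48.4 and 64.5 in suprabasal libraries, and suprabasal library 3 is well below the others.

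The isoprenoid steps split. Fdps, which makes farnesyl diphosphate, stood at 63.1, 72.6, 43.2 and 36.9 RPKM in Fvb/N basal and 154, 167, 58.1 and 116 in suprabasal libraries, with library 3 inside the basal range, and rose by 1.13 (SE 0.344, adjusted p = 0.0146). Its rise was 0.16 (SE 0.0391, adjusted p = 0.00391) in WT, from 44.1 and 47.05 to 50.4 and 51.4 RPKM, and 0.49 in KO. Idi1, the isopentenyl diphosphate isomerase, was called in opposite directions in the tables. In Fvb/N it was at 17.2, 22.3, 19.1 and 15.5 RPKM in basal and 30.8, 32.7, 17.5 and 27.6 in suprabasal libraries, a rise of 0.50 (SE 0.2, adjusted p = 0.0447) with library 3 inside the basal range. In WT it was at 27.8 and 28.6 RPKM in basal and 17.5 and 17.7 in suprabasal libraries, a change of −0.65 (SE 0.0351, adjusted p = 9.08e-08). In KO it was at 21.00 and 21.9 RPKM in basal and 16.2 and 17.2 in suprabasal libraries, a change of −0.34 (SE 0.0351, adjusted p = 9.73e-06), which turns to 0.11 after rescaling while that of WT stays lower at −0.19. The tables were normalized apart and differ in strain, and the difference between Fvb/N and WT was not tested. Ggps1, which makes geranylgeranyl diphosphate, was low throughout (1.90 to 3.54 RPKM). It was not called in Fvb/N (−0.17, adjusted p = 0.247) and was lower in WT (−0.44) and KO (−0.50), where after rescaling it is −0.09 (adjusted p = 0.203) and −0.15 (adjusted p = 0.0357).

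Of the 11 sterol steps 9 rose in Fvb/N, 10 in WT and 10 in KO, and 0 were lower in any of them by limma, also at an unadjusted p under 0.05. Sqle, which oxidizes squalene and is a control point of the late pathway, stood at 23.2 and 22.98 RPKM in WT basal and 68.3 and 69.8 in WT suprabasal libraries. In KO it stood at 19.7 and 19.97 RPKM in basal and 81.2 and 81.95 in suprabasal libraries. The suprabasal libraries of both genotypes lie far above the basal ones, and Sqle rose 2.91-fold in WT (1.54, SE 0.024, adjusted p = 3.89e-11) and 3.97-fold in KO (1.99, SE 0.024, adjusted p = 8.02e-12). In Fvb/N its levels were 52.6, 55.7, 22.6 and 21.03 RPKM in basal and 105, 104, 48.3 and 78.7 in suprabasal libraries, with suprabasal library 3 below basal libraries 1 and 2, and it rose by 1.20 (SE 0.376, adjusted p = 0.0164). Msmo1, a sterol C4 methyl oxidase, was at 13.2 and 13.7 RPKM in WT basal, 39.8 and 39.6 in WT suprabasal, 11.3 and 10.8 in KO basal and 49.7 and 50.3 in KO suprabasal libraries. It rose 2.82-fold in WT and 4.23-fold in KO, and 2.77-fold in Fvb/N, from 25.7, 32.8, 13.9 and 13.5 to 77.4, 84.9, 28.97 and 55.9 RPKM, where suprabasal library 3 again overlaps the basal range. Dhcr7, the last reductase of the pathway, rose 2.74-fold in WT, from 13.6 and 14.1 to 39.5 and 39.7 RPKM, and 3.36-fold in KO, from 13.3 and 13.8 to 47.3 and 48.6 RPKM. In Fvb/N Dhcr7 was at 33.9, 30.1, 16.8 and 14.9 RPKM in basal and 54.2, 50.99, 31.1 and 39.05 in suprabasal libraries, with an overlap at library 3, and rose by 0.90 (SE 0.286, adjusted p = 0.018).

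Further sterol steps moved alike. Lss, which closes squalene epoxide into lanosterol, was at 11.8, 10.7, 7.41 and 6.46 RPKM in Fvb/N basal and 19.8, 18.4, 16.2 and 15.1 in suprabasal libraries, with no overlap, and rose by 0.90 (SE 0.187, adjusted p = 0.00202). Sc5d, a sterol desaturase, was at 12.2, 12.1, 7.58 and 7.09 RPKM in basal and 26.02, 23.9, 13.5 and 24.7 in suprabasal libraries, also with no overlap and with suprabasal library 3 well below the others. It rose by 1.10 (SE 0.246, adjusted p = 0.00306) in Fvb/N. Tm7sf2, a sterol C14 reductase, rose by 1.14 (SE 0.288, adjusted p = 0.00579) from 11.6, 10.6, 6.71 and 6.05 to 25.5, 28.2, 12.01 and 17.5 RPKM. Cyp51, lanosterol demethylase, Ebp, a sterol isomerase, and Fdft1, squalene synthase, rose by 1.03, 1.29 and 0.90 in Fvb/N, each with overlapping groups. In the Dlx3 table Lss, Sc5d, Tm7sf2, Cyp51, Ebp and Fdft1 rose by 0.51 to 1.28 in WT and by 0.66 to 1.39 in KO. The fractions of these genes did not overlap. How many of all genes show no overlap was not counted in any comparison. Libraries of the same Dlx3 group differed by a median of only 3.41% to 3.77%. Nsdhl, a sterol C4 decarboxylase, was the exception in all 3 comparisons: its changes were 0.42 in Fvb/N (adjusted p = 0.122), −0.08 in WT (adjusted p = 0.195) and 0.11 in KO (adjusted p = 0.109). Nsdhl was at 11.3 and 12.6 RPKM in WT basal and 11.9 and 10.6 in WT suprabasal libraries, which overlap. After rescaling it is called higher in each (1.05, 0.36 and 0.54). Hsd17b7, which reduces the C3 ketone, rose in WT (0.59) and KO (0.66) and was not called in Fvb/N (0.11, adjusted p = 0.483).

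Among the regulators Insig2, an Insig protein of the endoplasmic reticulum, rose in all 3 comparisons. It was at 7.85, 7.74, 6.76 and 8.06 RPKM in Fvb/N basal and 13.6, 13.3, 12.2 and 12.9 in suprabasal libraries, with no overlap, a rise of 0.70 (SE 0.102, adjusted p = 0.00029). In WT Insig2 rose by 0.58 and in KO by 0.61. Insig1, its relative, rose in Fvb/N by 0.51 (SE 0.186, adjusted p = 0.0318) and in KO by 0.34, and was not called in WT (0.06, adjusted p = 0.375). The SREBP genes Srebf1 and Srebf2 were higher in suprabasal cells of the Dlx3 table. Srebf1 went from 28.9 and 29.4 to 44.7 and 45.9 RPKM in WT and from 26.4 and 26.9 to 45.1 and 44.9 in KO, with no overlap, and rose by 0.62 (SE 0.0257, adjusted p = 1.57e-08) and 0.73. Srebf2 went from 53.4 and 53.9 to 69.2 and 69.1 RPKM in WT and from 48.1 and 49.4 to 72.1 and 69.9 in KO, and rose by 0.36 and 0.53. In Fvb/N neither was called (−0.07, adjusted p = 0.737, and −0.25, adjusted p = 0.15), and both are higher after rescaling (0.59 and 0.42). Scap was called lower in Fvb/N (−0.54, SE 0.153, adjusted p = 0.00965; 0.12 after rescaling) and higher in WT (0.27) and KO (0.41). It was at 44.1, 37.6, 35.7 and 31.1 RPKM in Fvb/N basal and 26.7, 25.6, 28.9 and 19.7 in suprabasal libraries, and the groups do not overlap. In WT it was at 30.9 and 30.3 RPKM in basal and 36.7 and 37.6 in suprabasal libraries. Nr1h2, which encodes LXR-beta, was at 27.0 to 43.2 RPKM in all libraries and was lower in each comparison (−0.40, −0.16 and −0.24), but positive in each after rescaling (0.27, 0.31 and 0.22).

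In the transport group Sult2b1 stood apart. Its level in Fvb/N was 43.3, 43.1, 8.85 and 9.89 RPKM in basal and 176, 185, 58.9 and 149 in suprabasal libraries. No suprabasal library overlaps the basal ones, and the basal libraries fall into a high pair, 1 and 2, and a low pair, 3 and 4. Sult2b1 rose by 2.62 (SE 0.587, adjusted p = 0.00303) in Fvb/N. It was at 9.06 and 9.73 RPKM in WT basal, 58.9 and 60.9 in WT suprabasal, 10.9 and 12.2 in KO basal and 70.3 and 74.1 in KO suprabasal libraries, and rose by 2.55 (SE 0.0515, adjusted p = 1.93e-10) in WT and 2.55 (SE 0.0515, adjusted p = 2.01e-10) in KO. Stard4, a cytosolic sterol carrier, rose in each comparison (0.78, 0.28 and 0.51), from 8.60, 10.05, 7.25 and 7.49 to 15.8, 14.99, 13.8 and 15.5 RPKM in Fvb/N, with no overlap. Npc2, which hands cholesterol to Npc1 in the lysosome, was lower in each. It was at 22.7, 25.4, 28.2 and 36.99 RPKM in Fvb/N basal and 15.9, 17.01, 14.8 and 15.6 in suprabasal libraries, with no overlap, a change of −0.78 (SE 0.15, adjusted p = 0.00133), and changed by −0.52 in WT and −0.27 in KO. After rescaling its change is −0.13 in Fvb/N, −0.05 in WT and 0.19 in KO, the last of them called higher. Npc1, the lysosomal exporter, was called lower in Fvb/N (−0.43, SE 0.17, adjusted p = 0.0424; 0.18 after rescaling) and higher in WT (0.36) and KO (0.41). Soat1, which esterifies cholesterol, was at 1.52, 1.74, 4.19 and 3.46 RPKM in Fvb/N basal and 0.477, 0.500, 1.79 and 0.722 in suprabasal libraries, with library 3 inside the basal range, and fell by 1.97-fold (−0.98, SE 0.285, adjusted p = 0.0116). Abca1, the exporter of cholesterol to lipid-poor apolipoprotein, was at 1.26, 1.02, 2.22 and 3.28 RPKM in basal and 0.377, 0.317, 1.83 and 0.522 in suprabasal libraries of Fvb/N, with the same overlap, a change of −0.75 (SE 0.301, adjusted p = 0.0457). Neither the call on Soat1 nor that on Abca1 holds after rescaling (adjusted p = 0.058 and 0.191). In WT neither passed the test (−0.01 for Soat1, adjusted p = 0.902, and −0.05 for Abca1, adjusted p = 0.37). In KO Soat1 was called the other way, higher in suprabasal cells by 0.28 (SE 0.0638, adjusted p = 0.00215), from 1.55 and 1.40 to 1.97 and 2.05 RPKM, while Abca1 was not called (−0.10, adjusted p = 0.0952). Abcg1, an exporter of cholesterol to lipoproteins, rose in suprabasal cells of WT by 0.26 (SE 0.0561, adjusted p = 0.00154) and of KO by 0.32 (SE 0.0561, adjusted p = 0.000422).

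In Fvb/N several calls were lost with 1 library left out, most of them whichever of several libraries it was. Idi1 lost its call without basal library 1, 3 or 4 or suprabasal library 1, 2 or 4, with adjusted p from 0.0726 to 0.119. Insig1 lost it without basal 2 or 4 or suprabasal 1, 2 or 4 (0.0573 to 0.0923), and Cyp51 without basal 3 or 4 or suprabasal 1 or 2 (0.0557 to 0.0592). Dhcr7 lost it without basal 3 (0.0516) or suprabasal 1 (0.0503). Npc1 kept it only without suprabasal 3, with adjusted p from 0.0678 to 0.116 otherwise, and Abca1 lost it without basal 3 or 4 or suprabasal 1, 2 or 4 (0.101 to 0.123). Within the later run code alone, as the labels give it, Idi1, Fdft1, Scap, Insig1, Nr1h2, Npc1 and Abca1 were not called. The others of the 24 kept their call there, and 15 members were higher and 2 lower. Of all 11608 genes 1163 were higher and 5410 lower in that setting. In WT and KO all 28 and all 30 calls held with any 1 library left out. Among the Fvb/N basal libraries, 1 and 2 had the higher summed suprabasal markers, as given above, and 15 of the 19 synthesis enzymes stood higher in both of them than in libraries 3 and 4. The other 4 were Acat2, Hmgcs1, Idi1 and Ggps1, and Ggps1 was lower in both. The part of the suprabasal markers in the result was not tested. How many of all genes have this order was not counted, so no share of all genes stands beside the 15. Over the 11608 genes tested, libraries 1 and 2 differed from 3 and 4 by a median of 19.2% to 23.6%. The median difference was 10.1% between 1 and 2 and 8.59% between 3 and 4. Sebocytes, which also make sterols, were checked by 8 markers, of which 0 were at 0. Their summed level was 219 to 318 RPKM in Fvb/N basal and 441 to 572 in suprabasal libraries, 183 to 229 in the Dlx3 basal and 591 to 596 in the Dlx3 suprabasal libraries. Nearly all of it came from Krt79 (179 to 590 RPKM), a keratin also known from other epidermal cells, while Scd3, Awat1, Awat2, Cidea, Mc5r, Elovl3 and Pparg each stayed at or under 3.65 RPKM. Other markers moved with the fraction too. In Fvb/N the 4 inner root sheath markers summed to 3.44 to 5.27 RPKM in basal and 111 to 194 in suprabasal libraries, the 6 Langerhans and macrophage markers to 137 to 354 and 9.59 to 60.0, and the 4 melanocyte markers to 81.5 to 145 and 7.84 to 25.1. The sums of 6 fibroblast markers overlapped there, at 40.8 to 135 RPKM in basal and 17.1 to 116 in suprabasal libraries. In the Dlx3 table the fibroblast sum was 135 and 138 RPKM in WT basal against 45.9 and 44.6 in WT suprabasal libraries, and 121 and 127 against 60.7 and 62.5 in KO. Single fibroblast markers did not all follow that sum. Of the 4 tested, 2 were called higher and 2 lower in WT suprabasal cells, with log2 changes of −2.05 to 2.11. In KO 3 were called higher and 1 lower, at −1.84 to 3.12. The inner root sheath sum was 4.88 and 4.98 RPKM against 28.7 and 28.5 in WT, and 3.41 and 3.15 against 7.11 and 6.89 in KO. The Langerhans and macrophage sum was lower in WT suprabasal libraries, at 121 RPKM in both against 140 and 143, and higher in KO ones, at 178 and 176 against 143 and 142. The melanocyte sum was 81.1 RPKM in both WT basal libraries against 54.9 and 55.0, and 91.5 and 93.9 against 85.5 and 86.1 in KO. The part of these and of the sebocyte markers in the result was not tested.

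Dlx3 KO epidermis had small shifts of the synthesis enzymes, down in basal and up in suprabasal cells. In KO basal cells 13 of 32 tested members were lower and 2 higher than in WT, where 7.21% of all genes were called, 2.98% lower and 4.23% higher. The 13 include 9 of the 19 synthesis enzymes, and 0 enzymes were higher by limma, also at an unadjusted p under 0.05. In KO suprabasal cells 16 of 32 members were higher and 0 lower, where 37.3% of all genes were called, 21.6% higher and 15.7% lower. Of the enzymes 10 of 19 were higher there. By limma at an unadjusted p under 0.05, 2 members were lower in these cells. The 6 genes Mvd, Fdps, Fdft1, Sqle, Cyp51 and Msmo1, were called lower in KO basal and higher in KO suprabasal cells, while Sult2b1 and Abca1 were higher in both. The size of the shifts was at most 0.38 log2 units. The median member changed by −0.12 in basal and 0.12 in suprabasal cells, and the median gene by −0.02 and 0.01. The basal counts were 12 lower and 2 higher after rescaling, against 1.77% of all genes lower and 4.82% higher, and 13 and 2 with quantile normalization, against 1.85% and 4.22%. The suprabasal counts were 16 higher and 0 lower after rescaling, against 24.0% of all genes higher and 15.1% lower. With quantile normalization they were 11 higher and 5 lower, against 15.9% higher and 19.3% lower, so the share of members called lower is then near that of all genes.

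**Figure D3:**
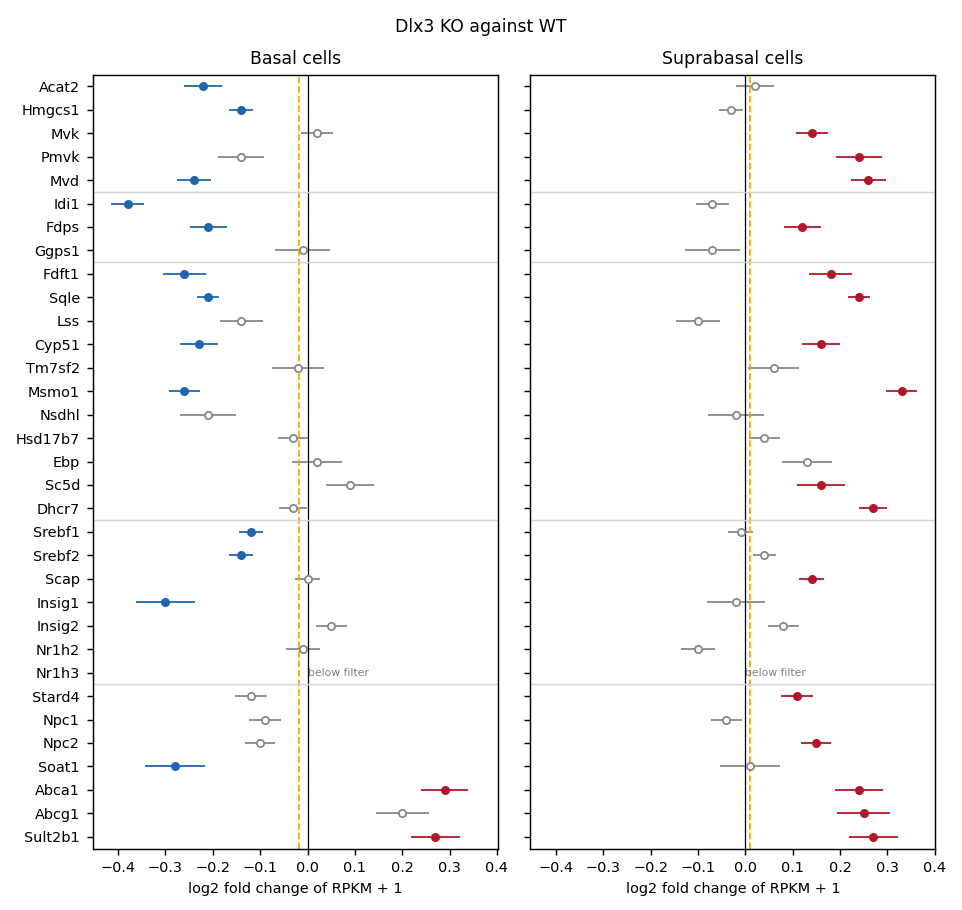
Dlx3 KO against WT log2 fold change of RPKM + 1 (x axis, points; bars are the standard error of limma) for each member (y axis) in basal and in suprabasal cells, filled red where called higher, filled blue where called lower and open where not called, with the median of all genes as the orange dashed line. Mvd, Fdps, Fdft1, Sqle, Cyp51 and Msmo1 are blue on the left and red on the right, and Abca1 and Sult2b1 are red on both sides.

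The late mevalonate gene Mvd showed the pattern in its levels. In WT basal cells it was at 6.08 and 6.43 RPKM, in KO basal cells at 5.10 and 5.18, and in suprabasal cells at 17.1 and 17.7 in WT and 21.02 and 21.1 in KO. The genotypes do not overlap in either fraction, but the share of all genes without overlap was not counted, here or for the genes below. Mvd changed by −0.24 (SE 0.0363, adjusted p = 0.0042) in basal and by 0.26 (SE 0.0363, adjusted p = 0.000868) in suprabasal cells. Pmvk was not called in basal cells (−0.14, adjusted p = 0.15) and rose in suprabasal cells by 0.24 (SE 0.0489, adjusted p = 0.00509), from 14.2 and 14.7 RPKM in WT to 18.1 and 16.4 in KO. Mvk rose in suprabasal cells by 0.14 (SE 0.0339, adjusted p = 0.0137) and was at 0.02 (adjusted p = 0.741) in basal cells. The early genes Acat2 and Hmgcs1 were lower in KO basal cells (−0.22, SE 0.0404, adjusted p = 0.012 and −0.14, SE 0.0248, adjusted p = 0.0112). In suprabasal cells they were not called (0.02, adjusted p = 0.687, and −0.03, adjusted p = 0.302), although Hmgcs1 is called lower there with quantile normalization (−0.14).

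The authors' deposited ratio of KO over WT in basal cells is 0.749 for Soat1, a low gene, and 0.761 for Idi1. On the log2(RPKM + 1) scale Idi1 had the largest basal fall of the tested members. It stood at 27.8 and 28.6 RPKM in WT basal and 21.00 and 21.9 in KO basal libraries, which do not overlap, a change of −0.38 (SE 0.0351, adjusted p = 0.000189). Its suprabasal WT libraries were at 17.5 and 17.7 RPKM and the KO libraries at 16.2 and 17.2, and Idi1 was not called (−0.07, adjusted p = 0.145), but −0.10 (adjusted p = 0.0483) with quantile normalization. Fdps was lower in KO basal cells, at 37.8 and 40.5 RPKM against 44.1 and 47.05 in WT (−0.21, SE 0.0391, adjusted p = 0.0116), and higher in suprabasal cells, at 55.6 and 55.4 against 50.4 and 51.4 (0.12, SE 0.0391, adjusted p = 0.0372). Ggps1 was called in neither fraction (−0.01, adjusted p = 0.931, and −0.07, adjusted p = 0.391).

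Of the 11 sterol steps 4 were lower in KO basal and 6 higher in KO suprabasal cells, against 2.98% and 21.6% of all genes. Sqle, whose levels are listed above, changed by −0.21 (SE 0.024, adjusted p = 0.000788) in basal and 0.24 (SE 0.024, adjusted p = 0.000159) in suprabasal cells, and its genotypes do not overlap in either fraction. Msmo1 changed by −0.26 (SE 0.0325, adjusted p = 0.00142) and 0.33 (SE 0.0325, adjusted p = 0.000146), also without overlap. On the log2(RPKM + 1) scale it had the largest suprabasal rise of the tested members, 1.25-fold. The authors' deposited table gives a ratio of KO over WT of 0.824 for Msmo1 and 0.859 for Sqle in basal cells, and of 1.26 and 1.18 in suprabasal cells. The deposited suprabasal ratio of Abcg1, a low gene, is larger, at 1.33. Fdft1 was at 12.7 and 12.96 RPKM in WT basal and 9.97 and 11.1 in KO basal libraries (−0.26, SE 0.0451, adjusted p = 0.00854), and at 18.5 and 18.8 in WT and 21.5 and 21.1 in KO suprabasal libraries (0.18, SE 0.0451, adjusted p = 0.0127). Cyp51 was at 11.98 and 11.2 RPKM in WT basal and 10.1 and 9.42 in KO basal libraries (−0.23, SE 0.0404, adjusted p = 0.00967), and at 23.96 and 23.99 in WT and 26.6 and 27.3 in KO suprabasal libraries (0.16, SE 0.0404, adjusted p = 0.0135). In both genes KO lies below WT in basal and above WT in suprabasal cells without overlap. Dhcr7 rose in KO suprabasal cells by 0.27 (SE 0.0295, adjusted p = 0.000244), and in basal cells it was at −0.03 (adjusted p = 0.652). Sc5d rose in suprabasal cells by 0.16 (SE 0.0503, adjusted p = 0.0388). Lss, Tm7sf2, Nsdhl, Hsd17b7 and Ebp were called in neither fraction, with changes of −0.21 to 0.02 in basal and −0.10 to 0.13 in suprabasal cells.

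**Figure D4:**
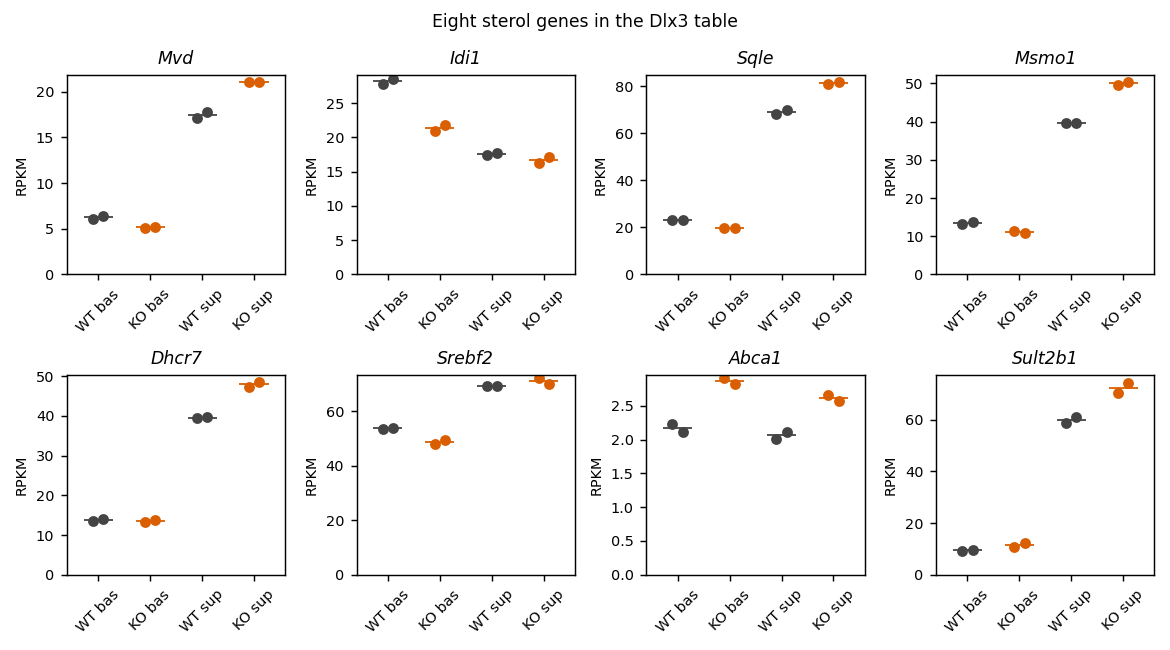
RPKM (y axis, from 0) of Mvd, Idi1, Sqle, Msmo1, Dhcr7, Srebf2, Abca1 and Sult2b1 in the 4 groups of the Dlx3 table, with a point for each of 2 libraries and a line at their mean, WT in grey and KO in orange. For Mvd, Sqle and Msmo1 the KO points lie below WT in basal and above WT in suprabasal cells, while for Abca1 and Sult2b1 they lie above WT in both.

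Of the 6 tested regulators 3 were lower in KO basal and 1 higher in KO suprabasal cells. Of all genes 2.98% were lower in the first and 21.6% higher in the second comparison. The suprabasal count of the regulators is thus not above the share of all genes. Insig1 was at 6.36 and 5.86 RPKM in WT basal and 4.73 and 4.82 in KO basal libraries, without overlap, a change of −0.30 (SE 0.0613, adjusted p = 0.0201). Srebf2 was at 53.4 and 53.9 RPKM in WT basal and 48.1 and 49.4 in KO basal libraries (−0.14, SE 0.0249, adjusted p = 0.0115), and Srebf1 at 28.9 and 29.4 in WT and 26.4 and 26.9 in KO (−0.12, SE 0.0257, adjusted p = 0.0208). KO lies below WT in both genes. In suprabasal cells Srebf1 and Srebf2 were not called (−0.01, adjusted p = 0.783, and 0.04, adjusted p = 0.268), but both are called lower with quantile normalization (−0.08 and −0.08). Scap rose in suprabasal cells, from 36.7 and 37.6 RPKM in WT to 41.4 and 40.5 in KO (0.14, SE 0.027, adjusted p = 0.00476), and was at 0.00 (adjusted p = 0.985) in basal cells. Insig2 and Nr1h2 were called in neither fraction.

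Of the export and sulfation genes, Abca1 and Sult2b1 were called higher in KO in both fractions and Abcg1 in suprabasal cells only. Abca1 was at 2.23 and 2.11 RPKM in WT basal and 2.91 and 2.83 in KO basal libraries, and at 2.01 and 2.11 in WT suprabasal and 2.67 and 2.57 in KO suprabasal libraries. All 4 KO libraries lie above all 4 WT libraries, and Abca1 rose by 0.29 (SE 0.05, adjusted p = 0.00897) in basal and 0.24 (SE 0.05, adjusted p = 0.00588) in suprabasal cells. Abcg1 was at 0.825 and 0.835 RPKM in WT basal, 1.09 and 1.10 in KO basal, 1.15 and 1.24 in WT suprabasal and 1.59 and 1.65 in KO suprabasal libraries, with KO above WT in each fraction. It was called in suprabasal cells (0.25, SE 0.0561, adjusted p = 0.00794) and not in basal cells (0.20, adjusted p = 0.0771). Sult2b1, whose levels are listed above, rose by 0.27 (SE 0.0515, adjusted p = 0.0145) in basal and 0.27 (SE 0.0515, adjusted p = 0.00423) in suprabasal cells, with KO above WT in each. Npc2 rose in suprabasal cells by 0.15 (SE 0.0318, adjusted p = 0.00688) and Stard4 by 0.11 (SE 0.0338, adjusted p = 0.0297), and neither was called in basal cells (−0.10, adjusted p = 0.0974, and −0.12, adjusted p = 0.0699). Soat1 was lower in KO basal cells (−0.28, SE 0.0638, adjusted p = 0.0327), at 1.55 and 1.40 RPKM against 1.99 and 2.01. Npc1 was called in neither fraction (−0.09, adjusted p = 0.161, and −0.04, adjusted p = 0.4).

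With 2 libraries a group, many of these calls depend on each library. Of the 13 basal falls 4 held with any 1 library left out: Mvd, Idi1, Sqle and Msmo1. Without KO basal 1 the calls on Acat2, Hmgcs1, Fdps, Srebf1, Srebf2, Insig1, Soat1 and Abca1 were lost (adjusted p 0.0693 to 0.131), without KO basal 2 those on Hmgcs1, Cyp51, Srebf1, Insig1, Soat1 and Sult2b1 (0.0513 to 0.159), without WT basal 1 those on Acat2, Hmgcs1, Cyp51, Srebf1, Srebf2, Insig1, Soat1 and Sult2b1 (0.0532 to 0.12), and without WT basal 2 those on Acat2, Fdps, Fdft1, Srebf1, Srebf2, Soat1 and Abca1 (0.0604 to 0.151). Of the 16 suprabasal rises 9 held, those of Pmvk, Mvd, Sqle, Msmo1, Dhcr7, Scap, Npc2, Abca1 and Sult2b1. Without KO suprabasal 1 the calls on Mvk, Fdps, Fdft1, Sc5d and Stard4 were lost (0.0694 to 0.159), without KO suprabasal 2 those on Fdps, Cyp51, Sc5d and Stard4 (0.072 to 0.11), without WT suprabasal 1 those on Mvk, Fdps, Fdft1, Cyp51, Sc5d, Stard4 and Abcg1 (0.0521 to 0.15), and without WT suprabasal 2 those on Mvk, Fdps, Cyp51, Sc5d and Stard4 (0.0563 to 0.142). Markers of the keratinocyte layers also differed by genotype. The summed level of 6 suprabasal markers was 5480 and 5520 RPKM in KO basal against 3630 and 3650 in WT basal libraries, and 52100 and 51800 in KO suprabasal against 45000 and 45200 in WT suprabasal libraries. The sum of 6 basal markers was 15200 in both KO basal libraries against 14600 and 15000 in WT, and 6650 and 6590 against 7100 and 7160 in suprabasal cells. For 6 Langerhans and macrophage markers it was 178 and 176 RPKM in KO suprabasal against 121 in both WT suprabasal libraries, and for 4 melanocyte markers 85.5 and 86.1 against 54.9 and 55.0. For 4 inner root sheath markers it was 7.11 and 6.89 RPKM in KO against 28.7 and 28.5 in WT, and for 6 fibroblast markers 60.7 and 62.5 against 45.9 and 44.6. Of these lists 0 markers were at 0, and the part of these differences in the results was not tested. Adipocyte and endothelial markers were near 0, with sums of at most 0.129 and 0.381 RPKM in the Dlx3 table and up to 3 of 6 and 2 of 4 markers at 0.

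The change of the KO effect between fractions was tested itself, as the interaction of genotype and fraction. It was positive and called in 16 of 32 tested members, meaning that the KO to WT ratio was higher in suprabasal than in basal cells, and negative and called in 0 by limma, also at an unadjusted p under 0.05. Of all genes 22.5% were called, 14.4% positive and 8.08% negative. The median member was at 0.15 and the median gene at 0.03. The largest interaction was that of Msmo1, 0.59 (SE 0.0459, adjusted p = 0.000152), followed by Mvd, 0.50 (SE 0.0513, adjusted p = 0.000492), and by Sqle, 0.45 (SE 0.034, adjusted p = 0.000132), and Fdft1, 0.45 (SE 0.0637, adjusted p = 0.00243). Cyp51 (0.39), Pmvk (0.38), Fdps (0.34), Idi1 (0.31), Dhcr7 (0.30) and Acat2 (0.24) make up the 10 called enzymes. The regulators Srebf2 (0.17), Scap (0.13) and Insig1 (0.28) and the transport genes Soat1 (0.29), Npc2 (0.25) and Stard4 (0.23) were called too. For Sult2b1 the interaction was 0.00 (SE 0.0728, adjusted p = 0.976) and for Abca1 −0.05 (SE 0.0707, adjusted p = 0.663), so a difference between the fractions in their KO effect was not detected. After rescaling 14 members were called positive, against 13.5% of all genes positive and 9.25% negative, and with quantile normalization 13, against 8.72% and 11.2%. Calls on Acat2, Scap, Insig1 and Soat1 were lost when some 1 library was left out, with adjusted p of up to 0.0599, 0.112, 0.13 and 0.142.

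For other genes around the pathway, the directions between the fractions depend on the scale. Their counts are to be read against all genes, of which 60.6%, 70.4% and 69.7% were lower and 13.4%, 19.2% and 19.9% higher in Fvb/N, WT and KO, and 34.0%, 39.2% and 38.7% lower and 33.1%, 40.3% and 39.8% higher after rescaling. Of 14 genes that use isoprenoids for prenylation, dolichol and ubiquinone, 0 were higher and 8 lower in Fvb/N, 2 and 9 in WT and 3 and 9 in KO, with the share called lower near or under that of all genes, and after rescaling 5 and 2, 7 and 0, and 9 and 2. The dolichol synthesis genes Dhdds and Nus1 changed by −0.79 and −0.86 in Fvb/N, and by −0.18 and −0.26 after rescaling. Of 9 genes of SREBP processing and sterol-regulated degradation, 1 was higher and 4 lower in Fvb/N, 2 and 4 in WT and 3 and 2 in KO, but after rescaling 3 and 2, 9 and 0, and 9 and 0. Mbtps1, the protease that first cuts SREBPs, changed by −1.68 in Fvb/N and by −0.38 in WT, where rescaling turns it to 0.10. Erlin1, a lipid raft protein of the endoplasmic reticulum, rose by 0.91 in WT and 0.93 in KO. Of 14 genes of intracellular sterol transport and uptake, 8 were lower in each comparison and 2, 4 and 4 higher, with the share called lower under that of all genes, and after rescaling 6, 4 and 3 were lower and 7, 6 and 8 higher. Gramd1a, a carrier of sterol from the plasma membrane, and Mylip, the ligase that degrades lipoprotein receptors, changed by −1.96 and −2.34 in Fvb/N. Stard5, a sterol carrier, rose by 1.40 in WT and 1.16 in KO. The 3 tested genes of the oxysterol and sulfate list were lower in each comparison, but after rescaling 2 were lower in Fvb/N, 0 were called in WT and 3 were higher in KO. Papss1, which makes the sulfate donor, changed by −0.47 in WT and −0.38 in KO, and after rescaling by 0.00 and 0.08.

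Fatty acid genes controlled by SREBP1 were counted in the same way, and between the fractions against the same shares of all genes. Of 11 tested, 5 were higher and 3 lower in Fvb/N, 7 and 3 in WT, and 8 and 2 in KO, and after rescaling 6 and 3, 9 and 2, and 9 and 0. Elovl6, a fatty acid elongase, rose by 1.10 in WT and 1.59 in KO, and Scd2, a desaturase, by 0.76 and 1.06. In KO basal cells 4 of the 11 were lower than in WT and 0 higher, against 2.98% of all genes lower and 4.23% higher. Scd1, a desaturase, was at 11.2 and 10.96 RPKM in WT basal and 7.76 and 7.87 in KO basal libraries, without overlap, and changed by −0.45 (SE 0.036, adjusted p = 7.03e-05). Scd2 changed by −0.28 there. In KO suprabasal cells 3 were higher than in WT and 0 lower, with Me1, malic enzyme, at 0.38 and Acly, ATP citrate lyase, at 0.17. Of all genes 21.6% were higher and 15.7% lower in that comparison, so the share of these genes called higher is near that of all genes. With quantile normalization 1 was higher and 1 lower there, against 15.9% and 19.3% of all genes. The interaction was positive and called in 8 of the 11, with Scd1 at 0.52 and Scd2 at 0.29, and in 4 with quantile normalization. Of all genes it was called positive in 14.4% and negative in 8.08%, and in 8.72% and 11.2% with quantile normalization.

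The other lists were tested for the KO effect as well. In basal cells limma called it in 0 of 14 isoprenoid use genes and 0 of 3 oxysterol genes, and at an unadjusted p under 0.05 in 2 and 1. Of the 9 SREBP processing genes 1 was lower, Tmem97, a sterol-binding membrane protein, at −0.24 (adjusted p = 0.0128). Of the 14 transport genes 3 were higher, among them the lipoprotein receptor Lrp1 at 0.25 and Gramd1c at 0.46. In suprabasal cells 2 of 14 isoprenoid use genes were higher and 4 lower, with Rabggtb, a subunit of Rab prenyl transferase, at −0.24 and Icmt, which methylates prenylated proteins, at 0.16. There 3 SREBP processing genes were higher, including Ube2g2, a ubiquitin-conjugating enzyme, at 0.27, and 3 transport genes were higher and 2 lower, with Scarb1, the HDL receptor, at 0.23 and Osbpl8, a lipid transfer protein, at −0.23. The oxysterol hydroxylase Cyp39a1, at 0.14, was the 1 gene called in the oxysterol list. The interaction was positive and called in 6 of the 9 SREBP processing genes, with Tmem97 at 0.35 and Ube2g2 at 0.26, but in 2 with quantile normalization. It was called positive in 1 and negative in 1 of the isoprenoid use genes, positive in 2 and negative in 3 of the transport genes, and in 0 of the oxysterol genes, 2 of which had a positive interaction at an unadjusted p under 0.05 by limma. The shares of all genes called in these 3 comparisons, 7.21%, 37.3% and 22.5%, stand beside these counts. By direction, 4.23% of all genes were higher and 2.98% lower in basal cells, and 21.6% and 15.7% in suprabasal cells. The suprabasal counts of the transport genes are thus near the shares of all genes. The interaction was called positive in 14.4% and negative in 8.08% of all genes.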

How the data were processed

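Total RNA of Percoll fractions of newborn mouse epidermis was sequenced with NEBNext Ultra II libraries, per the labels' protocols. The authors mapped the reads to mm10 with TopHat (TopHat2 2.1.1, bcl2fastq 2.20.0.422 and Partek, per the submitters' processing notes) and deposited RPKM per gene, calculated in Partek per the file headers. They also deposited the fold ratio of each comparison in a table of their own. The annotation, the treatment of multi-mapping reads and any use of strand are not given in the sources used here, so reads of near-identical copies or overlapping genes could be assigned wrongly. RPKM are not counts, and the tables of Fvb/N and of Dlx3 mice were normalized apart, so levels were compared within a table only.

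Genes with at least 1 RPKM in at least 4 Fvb/N libraries (11608 genes) or at least 2 Dlx3 libraries (12146 genes) were tested with limma 3.58.1 (trended prior, R 4.3.3) on log2(RPKM + 1). All 4 groups of the Dlx3 table entered 1 fit. P-values were adjusted by Benjamini-Hochberg over all genes of the table with a threshold of 0.05. Fold changes are on the log2(RPKM + 1) scale, which understates changes of low genes. The steps were tested on simulated data. Depth was estimated from low RPKM values of genes with 1 transcript in the GENCODE annotation. The most frequent low product of RPKM and exon length was taken to stand for 1 read. Of the 6183 genes used, 189 to 328 lay at that value in a library. The estimate assumes GENCODE lengths, which may differ from those the authors used. Python 3.11.15 served for summaries, with pandas 2.3.3, and for plots, with matplotlib 3.10.9.

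The members and gene lists were chosen with earlier results of these data known, so no list count is independent evidence. All 33 members may be named. Values in every library and full statistics go to up to 4 members of each role group and comparison with the smallest adjusted p and to members that go against their group, and up to 2 genes of each other list and comparison are named. Alternatives were a pseudocount of 0.1, no filter, rescaling by the median ratio, quantile normalization, a replicate block, leaving out each library, the run code as a term, each run code alone, and Fvb/N without suprabasal libraries 3 and 4. Deviations of Fvb/N libraries with the same replicate number had correlations of 0.507, 0.567, 0.555 and 0.121. The main fit did not pair the libraries, and the replicate block entered only as an alternative. Libraries of different number but the same labelled run code gave correlations of 0.36, 0.587, 0.014 and 0.467, so number and run code are not told apart. In Fvb/N the block changed no call on a member. RefSeq promoter windows were searched on both strands.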

Additional observations from a re-analysis of the deposited data

Results flagged for a closer look

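The KO effect on 16 members differed between the fractions by the interaction test of limma, and it was positive in each. In log2 units the difference was 0.24 for Acat2, 0.38 for Pmvk and 0.50 for Mvd among the mevalonate steps, and 0.31 for Idi1 and 0.34 for Fdps among the isoprenoid steps. Among the sterol steps it was 0.45 for Fdft1, 0.45 for Sqle, 0.39 for Cyp51, 0.59 for Msmo1 and 0.30 for Dhcr7. For the regulators Srebf2, Scap and Insig1 it was 0.17, 0.13 and 0.28. For the transport genes Stard4, Npc2 and Soat1 it was 0.23, 0.25 and 0.29. Of these, 11 kept the call in every alternative run.

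Single libraries stood far from the other 3 of their group in 2 of the 66 groups of 4 tested, where chance gives about 1 in 20. Sc5d was at 13.5 RPKM in Fvb/N suprabasal library 3, against 23.9 to 26.0 in the others. Npc1 was at 12.2 RPKM in Fvb/N basal library 1, against 10.5 to 10.6 in the others.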

How the results depend on the processing

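Of the values under an alternative, 873 with 1 library left out and 968 under other settings kept their direction and their side of the threshold. Leaving out a library reversed 31, weakened 104 and strengthened 8, and the other settings reversed 42, weakened 52 and strengthened 17. Apart from what fewer libraries or a new scale do by construction, the cause was not tested.

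In Fvb/N the 6 members called lower became 0 after rescaling, 1 with quantile normalization and 2 in the later run code. In WT 6 became 2 after rescaling, and in KO 6 became 1 after rescaling and 2 with quantile normalization. Without the filter, KO basal cells had 1 member higher and 7 lower in place of 2 and 13. With 1 library left out they had 1 higher and 6 to 8 lower, and 463 to 542 genes called in place of 876. In KO suprabasal cells 5 members were lower with quantile normalization, and with 1 library left out 0 to 1 were lower and 9 to 12 higher. The interaction then called 1591 to 2306 genes in place of 2737.

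After rescaling, signs turned in Fvb/N for Acat2 (0.60), Hmgcs1 (0.55), Ggps1 (0.30), Srebf1 (0.59), Srebf2 (0.42), Scap (0.12), Nr1h2 (0.27) and Npc1 (0.18), in WT for Hmgcs1 (0.03), Nsdhl (0.36), Nr1h2 (0.31), Soat1 (0.31) and Abca1 (0.28), in KO for Acat2 (0.12), Hmgcs1 (0.12), Idi1 (0.11), Nr1h2 (0.22), Npc2 (0.19) and Abca1 (0.25), and in KO against WT basal cells for Ggps1 (0.00), Tm7sf2 (0.00) and Nr1h2 (0.01). With quantile normalization they turned in Fvb/N for Acat2 (0.37), Ggps1 (0.56), Srebf1 (0.18) and Npc1 (0.19), in WT for Nsdhl (0.22), Nr1h2 (0.15), Soat1 (0.15) and Abca1 (0.12), in KO for Abca1 (0.13), in KO against WT for Nr1h2 in basal (0.01) and Acat2 (−0.01) and Srebf2 (−0.08) in suprabasal cells, and in the interaction for Hmgcs1 (−0.02), Insig2 (0.00) and Abca1 (0.02). In the earlier run code alone Acat2 (0.15) and Hmgcs1 (0.09) turned, and without Fvb/N suprabasal libraries 3 and 4 Acat2 (0.20), Hmgcs1 (0.09) and Srebf1 (0.17).

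With 1 library left out, log2 changes crossed 0 in Fvb/N for Acat2 (−0.13 to 0.14), Hmgcs1 (−0.19 to 0.02) and Srebf1 (−0.17 to 0.05), and in WT for Soat1 (−0.08 to 0.06). They did so in KO against WT basal cells for Ebp (−0.03 to 0.06), Ggps1 (−0.05 to 0.03), Mvk (0.00 to 0.05), Nr1h2 (−0.04 to 0.01), Scap (−0.02 to 0.02) and Tm7sf2 (−0.10 to 0.07), and in suprabasal cells for Acat2 (−0.02 to 0.06), Insig1 (−0.11 to 0.07), Nsdhl (−0.09 to 0.06), Soat1 (−0.06 to 0.09) and Srebf1 (−0.03 to 0.01). In the interaction they did so for Ggps1 (−0.12 to 0.01), Lss (−0.02 to 0.09), Sc5d (−0.02 to 0.15), Sult2b1 (−0.07 to 0.07) and Tm7sf2 (−0.01 to 0.17).

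The Dlx3 libraries share a replicate number only, with correlations of −0.047 to 0.056 between those of the same number. With the replicate block 10862, 10878, 823, 4451 and 2654 genes were called in WT, KO, the basal and suprabasal genotype comparisons and the interaction. Ebp in suprabasal cells (adjusted p = 0.0363) and Srebf1 in the interaction (0.0499) gained a call with the block, and Insig1 (0.0617) and Soat1 (0.06) lost theirs in the interaction. In Fvb/N the block called 8827 genes in place of 8584. Lone libraries are assumed to vary like the other groups where 1 of 2 was left out. RPKM carry no read count per gene, so no counting interval was given.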
